A study of Mus musculus with 6 samples.

Results

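The cytosolic ribosome of the mammalian cell is built from ribosomal RNA and a set of proteins that belong to a large subunit (symbols Rpl and Rplp) or a small subunit (symbols Rps and Rpsa). The genes for these proteins were picked out of the deposited expression table by symbol alone, and 78 of its 15118 genes matched, 47 of the large and 31 of the small subunit. Symbols of pseudogenes were left out. The symbol rule also leaves out Rps3a1 and Fau, which encode ribosomal proteins under other kinds of names and are described separately. All 78 genes were found in GENCODE M21, the annotation used here for positions in the mouse genome build mm10.

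RNA came from 6 whole mouse hearts at E12.5 (mid-gestation) on a Black-Swiss background. Every embryo, control or mutant, carried a Cre recombinase at 1 copy of the Nkx2-5 gene, whose other copy was wild type. This Cre recombines loxP-flanked (floxed) DNA in cardiac progenitors and their descendants, and all embryos also had 1 floxed Hif1a allele. In the 3 control hearts (numbered 2, 5 and 9) the other Hif1a allele was wild type, and in the 3 mutant hearts (5, 8 and 10) it was null, so cells of the mutant heart that the Cre did not reach also had 1 functional Hif1a allele fewer than those of the controls. Hif1a encodes the oxygen-regulated subunit of HIF1, and the comparison asks how heart transcripts differ between the 2 genotypes. The labels name the samples only as separate hearts, so the spread between them may be partly technical.

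Ribosomal proteins are made in nearly equal numbers, since each mature ribosome holds a single copy of most of them, and their transcripts are among the most abundant in a growing cell. Transcription of their genes by RNA polymerase II is matched to that of ribosomal RNA by RNA polymerases I and III. Most of these transcripts begin with a cytosine followed by a run of pyrimidines, the terminal oligopyrimidine (TOP) motif, through which the kinase complex mTORC1 and the RNA-binding protein LARP1 set how strongly they are translated. Because this control acts on translation, transcript levels do not report the output of protein.

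The start-site motif is shown first because it is the sequence feature the family is known for. Of the 78 genes 58 have an entry in the RefSeq promoter table (assembly GRCm38.p6, the same coordinates as mm10), which holds 250 bases before and 50 from the annotated start of transcription on. A cytosine followed by at least 4 further pyrimidines stood exactly at an annotated start in 13 of the 58 (22.4%), against 3.01% of the 27025 genes with an entry. Annotated starts can lie some bases away from the starts used in the heart, so the first share does not count all TOP transcripts. The 4 genes with the lowest and the 4 with the highest log2 change among those 13 are printed below, lowest first, as 30 bases from 10 before the start to the 20th base of the transcript, in the 5′ to 3′ direction of the gene. Capitals mark the pyrimidine run from the annotated start on.
Rps15a, chr7:118116128-118116157, minus strand: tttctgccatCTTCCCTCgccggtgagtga
Rpl15, chr14:18270967-18270996, minus strand: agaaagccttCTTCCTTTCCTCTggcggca
Rpl38, chr11:114668570-114668599, plus strand: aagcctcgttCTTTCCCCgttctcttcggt
Rpl14, chr9:120571507-120571536, plus strand: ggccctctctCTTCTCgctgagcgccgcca
Rps21, chr2:180257369-180257398, plus strand: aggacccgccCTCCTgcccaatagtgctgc
Rps10, chr17:27635225-27635254, minus strand: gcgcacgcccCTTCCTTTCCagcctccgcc
Rpl28, chr7:4792955-4792984, plus strand: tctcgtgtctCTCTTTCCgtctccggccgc
Rplp2, chr7:141447641-141447670, plus strand: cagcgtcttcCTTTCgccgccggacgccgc

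The run at the start was 8 bases in Rps15a and 13 in Rpl15 at the low end of the log2 changes, and 8 in Rpl28 and 5 in Rplp2 at the high end. The 13 genes with a run at an annotated start had a median log2 change of 0.18, and the 44 tested genes with an entry but no such run a median of 0.15. These 13 held 3 genes whose mutant hearts all exceeded the controls, and the 44 held 21, where 7.6% of all tested genes did so. The count and the median thus differ in direction. The median GC content of the transcripts was 53.6% in the 13 and 50.6% in the 44, and its part in these values was not tested.

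On both strands of the 300 bases 10 strings were searched, several of them nested in each other, and all were chosen with the promoters and the log2 changes already seen. CTCTTTCC was present in 17.2% of the 58 genes and 3.57% of all genes with an entry, and its parts CTCTTTC in 29.3% against 9.28% and CTTTCC in 51.7% against 29.3%. CTTTTCC was present in 17.2% against 9.30%, and CTTCC, with its reverse complement GGAAG, in 91.4% against 73.9%. ACTTCCG, which resembles the core site of ETS family factors, was present in 36.2% against 7.20%. CCATCTTG, which resembles the site of the factor YY1, was present in 5.17% against 2.42%, its longer form GCCATCTTG in 1.72% against 1.42%, and TATAAA in 10.3% against 15.7%. The median log2 change of genes with and without the string was 0.19 and 0.16 for CTCTTTCC, 0.16 and 0.16 for ACTTCCG, 0.12 and 0.17 for CTTTTCC, 0.15 and 0.17 for CCATCTTG, and 0.22 (6 genes) and 0.16 for TATAAA. It was 0.15 and 0.16 for CTCTTTC, 0.16 and 0.16 for CTTTCC, 0.16 and 0.17 for CTTCC, and 0.15 (1 gene) and 0.16 for GCCATCTTG. These medians are descriptions, with no test.

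Of the 78 genes, 77 were strongly expressed. Levels are given in RPKM, reads per kilobase of the constitutive exons the authors used for the gene scaled to the reads of the library, so they can be compared between genes. Implied depth was 100800000 (mutant 8) to 158700000 (mutant 10) reads per heart, read from the spacing of the lowest values. With the length of 1 GENCODE M21 transcript per gene, every tested member came to at least 8795 implied reads in each heart. The authors' exons can differ from that length, so this number is approximate. The mean over the 6 hearts exceeded 100 RPKM in 77 genes and 1000 RPKM in 11, and 44 of the 100 most highly expressed genes of the table were ribosomal protein genes. The median level was 576 RPKM over the 46 tested large-subunit genes and 743 RPKM over the 31 small-subunit genes.

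**Figure D1:**
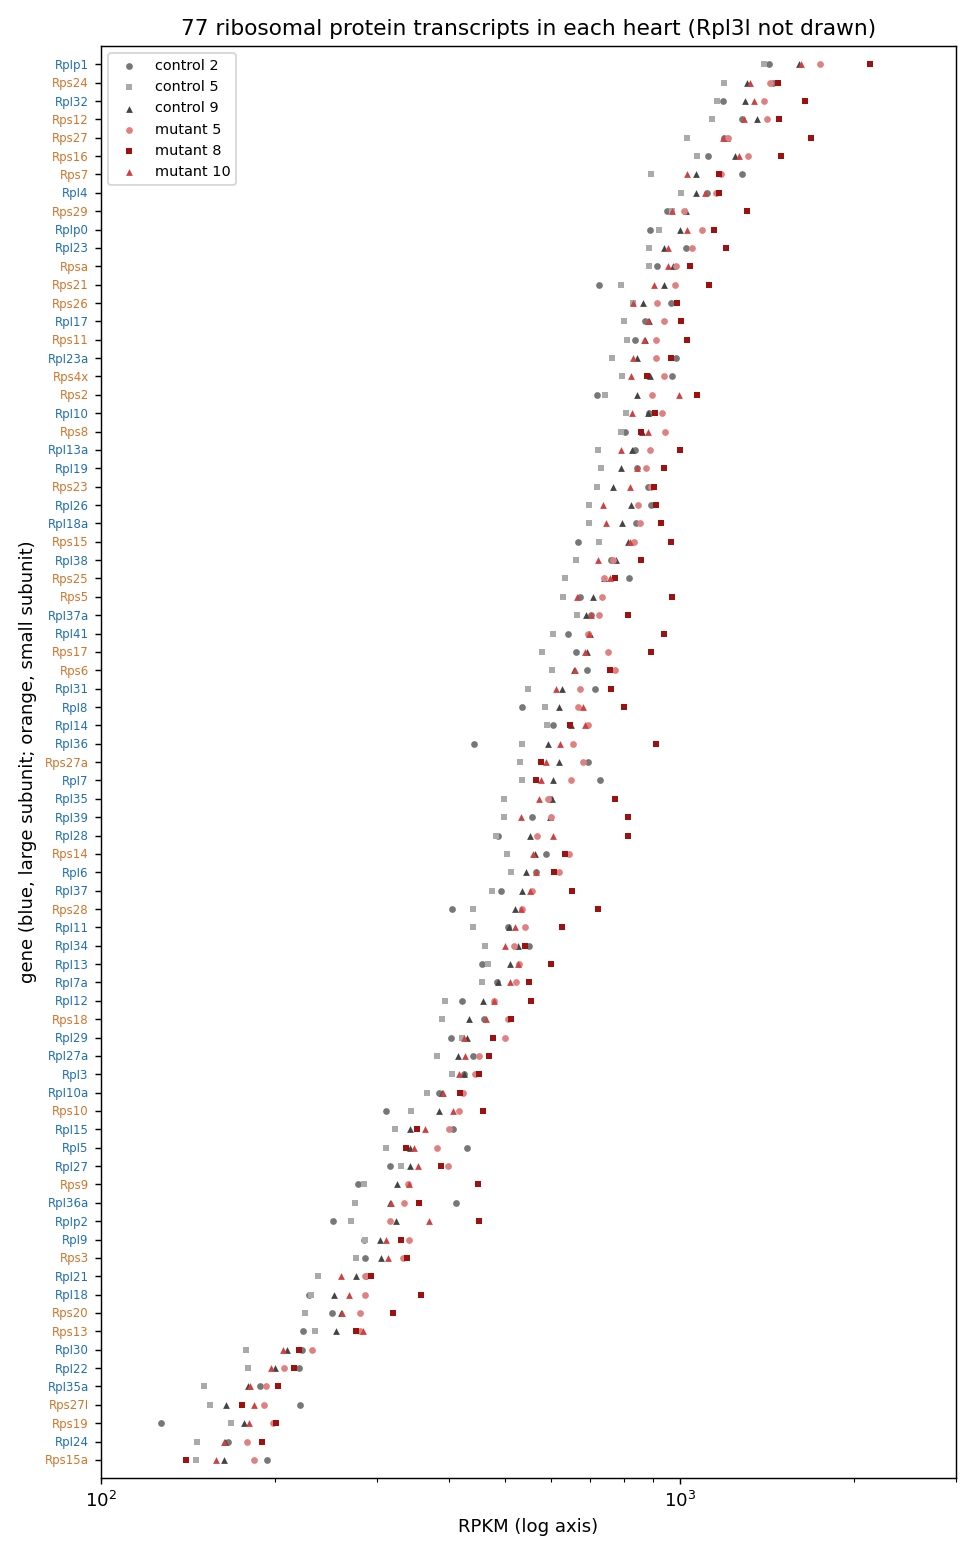
RPKM (log axis) of 77 ribosomal protein genes in each of the 6 hearts, ordered by their mean; each point is a heart (grey control, red mutant), symbols are blue for the large and orange for the small subunit, and Rpl3l is not drawn. The mean ranges from 164 RPKM (Rps15a) to 1657 RPKM (Rplp1), and mutant 8 is the highest heart in 52 of the genes.

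Rplp1, a protein of the acidic stalk of the large subunit that recruits translation factors, had the highest mean level at 1657 RPKM. It was followed by the small-subunit gene Rps24 (1365 RPKM), the large-subunit gene Rpl32 (1341 RPKM) and the small-subunit genes Rps12 (1330 RPKM) and Rps27 (1253 RPKM). Next to the bottom stood Rps15a (164 RPKM), Rpl24 (168 RPKM), Rps19 (175 RPKM) and Rps27l (181 RPKM). These 4 neighbours lay closer to each other than the hearts of a genotype did within Rps27l, whose control hearts alone ran from 154 to 221 RPKM. The 77 transcripts thus spanned 164 to 1657 RPKM, a unit that depends on the exons counted for each gene. Most of these genes have processed pseudogenes with near-identical sequence, and how reads matching both were placed is unknown here, so single levels are uncertain. The 48 pseudogene rows of the table had a median of 1.00 RPKM and a highest mean of 91.0 RPKM.

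Rpl3l, the large-subunit paralog that replaces Rpl3 in ribosomes of adult heart and skeletal muscle, was the single gene near the floor of the table. It measured 0.770, 0.714 and 0.639 RPKM in controls 2, 5 and 9 and 0.569, 1.02 and 0.955 RPKM for mutants 5, 8 and 10. The groups overlapped, and with less than 1 RPKM in 5 of the hearts Rpl3l did not meet the expression filter and was not tested. Its level was 0.151% to 0.181% of that of Rpl3 in control hearts and 0.128% to 0.230% in mutant hearts. Rpl3 itself, which lies near the peptidyl transferase centre, measured 417 ± 11.6 RPKM (control) and 436 ± 17.9 RPKM (mutant) (SD, n = 3 each).

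No ribosomal protein gene passed the test between genotypes. Log2 changes are mutant minus control on log2(RPKM + 1), tested with limma over 13080 genes at an adjusted p of 0.05, a threshold that 0.818% of them passed. Of the 77 tested ribosomal protein genes 0 passed, in either direction, and the smallest adjusted p in limma was 0.25 (Rps2). At an unadjusted p under 0.05 there were 15, all of them higher in the mutant hearts, where 4.92% of all tested genes were past that level and higher. None of the 18 alternative fits with limma called a member either, and the smallest adjusted p among them was 0.13.

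The members nonetheless lay mostly on the same side. The log2 change was above 0 in 73 of 77 genes, against 42.6% of all tested genes, with a median of 0.15 (a ratio of 1.11), quartiles of 0.10 and 0.24 and a range from −0.06 to 0.47. The median over all tested genes was −0.03. In 29 of the 77 genes every mutant heart exceeded every control heart, where 7.6% of all tested genes did so, and in 0 genes every mutant heart fell below the controls, where 9.43% of all tested genes did. The members vary together from heart to heart, so they are not 77 separate observations of the genotypes, and no p-value is given for their sum or median. The interval of the difference had a median half-width of 0.25 on the log2 scale, wider than the median difference, and included 0 in 62 genes.

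**Figure D2:**
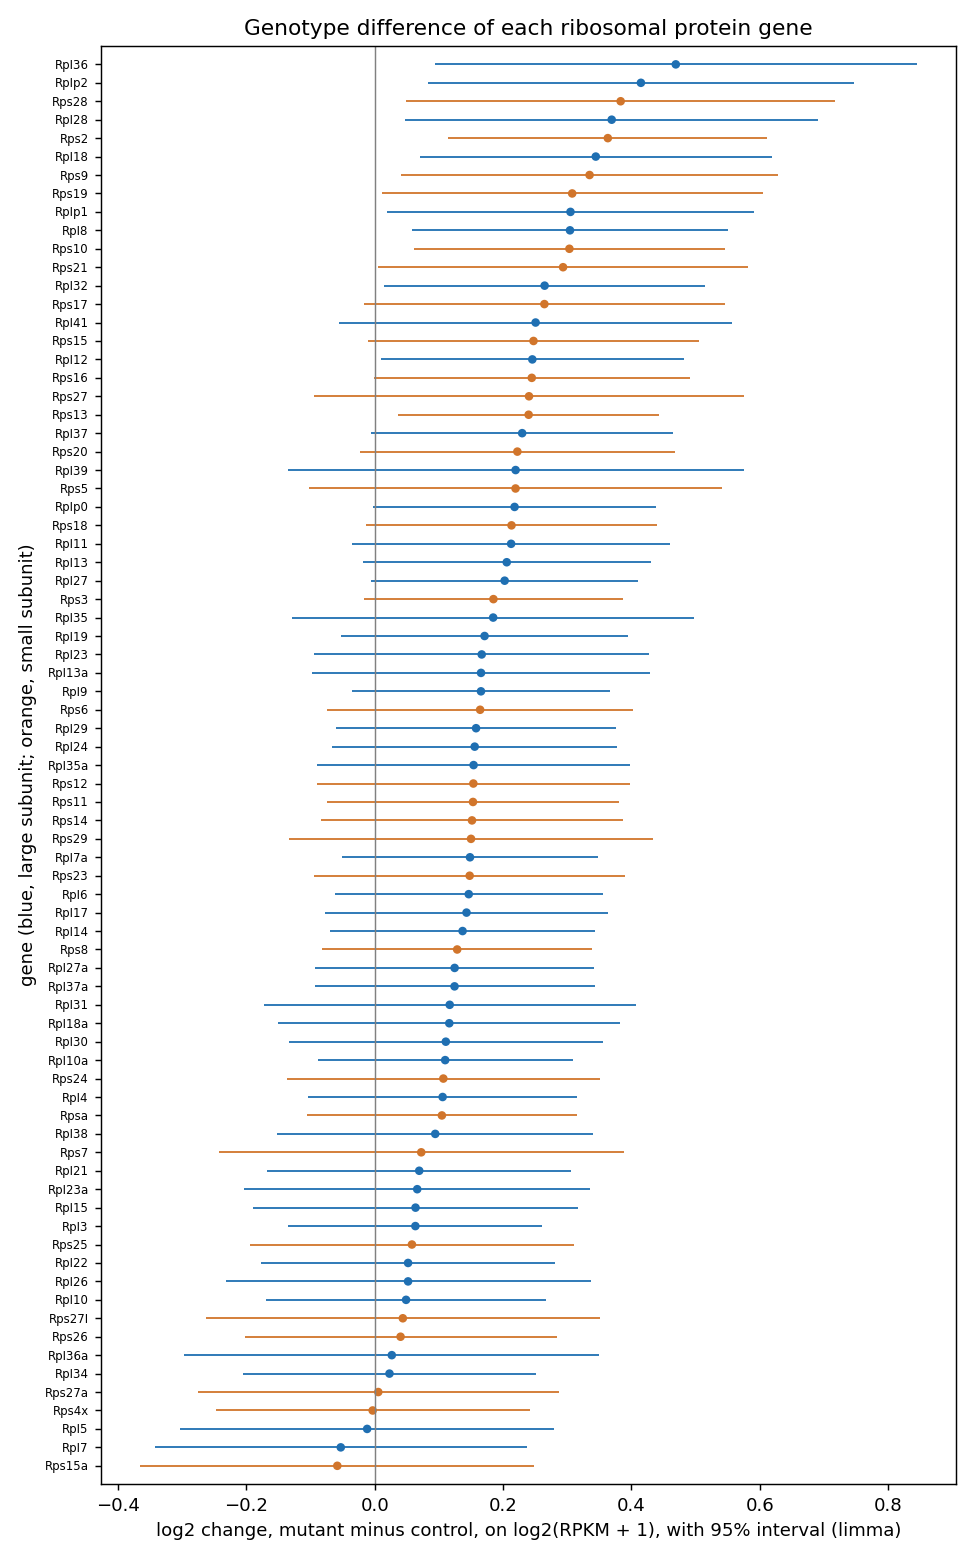
Log2 change (mutant minus control, on log2(RPKM + 1)) of each of the 77 tested ribosomal protein genes with its 95% interval from limma, ordered by size, large subunit in blue and small subunit in orange. The points run from −0.06 (Rps15a) to 0.47 (Rpl36) and both colours are spread along the whole order.

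By heart, the difference differed between animals. The median over the members of log2(RPKM + 1) minus the control mean was 0.04, −0.10 and 0.06 in controls 2, 5 and 9 and 0.16, 0.24 and 0.05 for mutants 5, 8 and 10. Mutants 5 and 8 were thus above all controls, while mutant 10 lay between controls 2 and 9. Control 5 had the lowest value of the 6 hearts in 58 genes and mutant 8 the highest in 52. Mutant 8 exceeded every control in 61 genes, mutant 5 in 54 and mutant 10 in 32. Without control 5 the median fell to 0.11 with 61 of 77 genes positive, and without mutant 8 it was 0.11 with 71 positive.

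**Figure D3:**
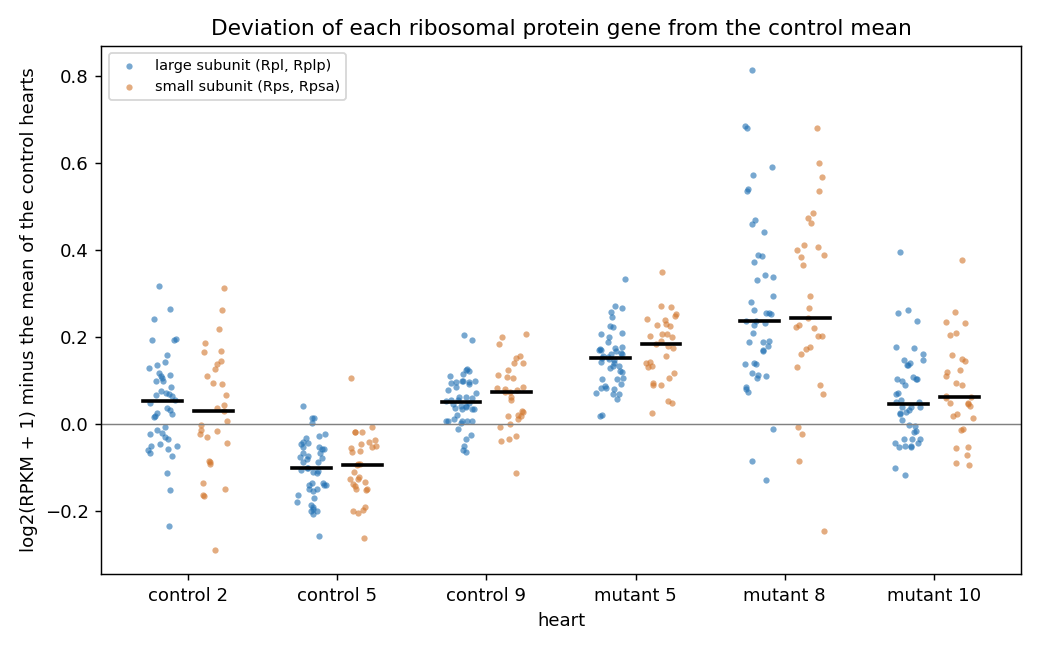
Deviation of each tested ribosomal protein gene from the control mean, on log2(RPKM + 1), in each heart; points are genes, blue for the 46 large-subunit and orange for the 31 small-subunit genes, and black bars are medians. Control 5 sits below 0, mutants 5 and 8 lie highest, mutant 10 lies at the level of controls 2 and 9, and both subunits have nearly the same median in every heart.

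Transcripts of the 78 genes took 13.7%, 13.1% and 14.3% of the summed RPKM in controls 2, 5 and 9, and 14.8%, 16.0% and 14.2% for mutants 5, 8 and 10. The mean share was 13.7% ± 0.592 in control and 15.0% ± 0.893 in mutant hearts (SD, n = 3 each), and mutant 10 lay inside the range of the controls. RPKM is a share of the library, so these values are relative to all other transcripts. In whole hearts a larger share of some cell type and more transcript in each cell cannot be told apart.

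The median log2 change was 0.15 over 46 large-subunit genes and 0.16 over 31 small-subunit genes. The difference of these medians (large minus small) was −0.013, and it ranged from −0.04 to −0.02 when 1 heart was left out at a time. Positive changes numbered 44 of 46 and 29 of 31, and genes whose mutant hearts all exceeded the controls numbered 18 and 11, beside 42.6% and 7.6% of all tested genes. The median deviation of the large subunit was 0.05, −0.10 and 0.05 in controls 2, 5 and 9 and 0.15, 0.24 and 0.05 for mutants 5, 8 and 10. That of the small subunit was 0.03, −0.09 and 0.07 in the controls and 0.18, 0.24 and 0.06 in the mutants, and the sign of the gap between subunits was not the same in every heart. The ratio of the summed RPKM of large-subunit to small-subunit genes stayed between 1.24 and 1.26 in all 6 hearts.

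The largest differences were those of Rpl36 and Rplp2, both of the large subunit, followed by the small-subunit gene Rps28. Rpl36 (ENSMUSG00000057863, chr17:56613416-56614243), a large-subunit protein gene, measured 440.4, 534 and 593 RPKM in controls 2, 5 and 9 and 653, 912 and 622 RPKM for mutants 5, 8 and 10. Every mutant heart exceeded every control heart, with mutant 8 far above the others. The log2 change was 0.47 ± 0.17 (SE), the adjusted p in limma was 0.33, and the 95% interval ran from 0.09 to 0.84.

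Rplp2 (ENSMUSG00000025508, chr7:141447370-141451585), the partner of Rplp1 in the stalk, measured 252, 269.9 and 323 RPKM in the controls and 315, 449 and 368 RPKM in the mutants, in the same order of hearts. Control 9 exceeded mutant 5, so the groups overlapped. Its log2 change was 0.41 ± 0.15 (SE), with an adjusted p in limma of 0.33. Rplp1 had means of 1478 ± 115 RPKM (control) and 1836 ± 270 RPKM (mutant) (SD, n = 3 each), and Rplp0, which anchors the stalk to the ribosome, 937 ± 57.1 and 1090 ± 59.8 RPKM. In both Rplp1 and Rplp0 all mutant hearts lay above all control hearts, with adjusted p in limma of 0.41 and 0.45.

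Rpl28 (ENSMUSG00000030432, chr7:4792874-4795066), a large-subunit gene whose start is printed above, measured 485, 482 and 552 RPKM in the controls and 568, 813 and 604 RPKM in the mutants, without overlap. Its log2 change was 0.37 ± 0.14 (SE), with an adjusted p in limma of 0.38. Rpl18, also of the large subunit, had a log2 change of 0.34 ± 0.12 (SE), from a control mean of 237 RPKM to a mutant mean of 304 RPKM, again without overlap.

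Among small-subunit genes Rps2 (ENSMUSG00000044533, chr17:24718116-24721929), which lies at the entry of the mRNA channel, had the smallest p of all members. It measured 719, 742 and 844 RPKM in controls 2, 5 and 9 and 897, 1073 and 996 RPKM for mutants 5, 8 and 10. The groups did not overlap, and mutant 8 was the highest heart. The log2 change was 0.36 ± 0.11 (SE), with an adjusted p in limma of 0.25.

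Rps28 (ENSMUSG00000067288, chr17:33819027-33824562), a small-subunit gene, measured 403, 440.1 and 519 RPKM in the controls and 533, 724 and 531 RPKM in the mutants. The groups did not overlap, although control 9 and mutants 5 and 10 lay close together. The log2 change of Rps28 was 0.38 ± 0.15 (SE), with an adjusted p in limma of 0.38. Rps9, needed for decoding accuracy, and Rps19, the gene most often mutated in Diamond-Blackfan anaemia, had log2 changes of 0.33 ± 0.13 and 0.31 ± 0.13 (SE), with no overlap and adjusted p in limma of 0.38 and 0.43. Rps19 measured 127, 167 and 177 RPKM in controls 2, 5 and 9 and 198, 200 and 180 RPKM for mutants 5, 8 and 10. Control 9 and mutant 10 nearly met, and control 2 lay well below the other controls.

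The 4 genes with a negative log2 change were all close to 0. Rps15a (ENSMUSG00000008683, chr7:118104372-118116188), a small-subunit gene, measured 194, 146 and 163 RPKM in the controls and 184, 140.1 and 158 RPKM in the mutants, a log2 change of −0.06 ± 0.14 (SE). Its highest heart was control 2 and its lowest mutant 8, the heart that was highest in most members. Rpl7, a large-subunit gene, had control and mutant means of 622 and 596 RPKM, and Rps4x, the X-linked small-subunit gene, 884 and 880.3 RPKM. Rpl5 had means of 361 and 355 RPKM, while Rpl11, which together with Rpl5 and 5S ribosomal RNA binds the p53 inhibitor MDM2 when ribosome assembly fails, had 484 ± 38.7 and 561 ± 56.4 RPKM (SD, n = 3 each). The adjusted p in limma was 0.98 for Rpl5 and 0.52 for Rpl11, and the difference between the 2 genes was not tested.

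Members at which signalling or another product is of interest lay near the middle or the bottom of the order. Rps6, the substrate of S6 kinase, had a log2 change of 0.16 ± 0.11 (SE). Rpsa, which is also known as a laminin receptor, had 0.10 ± 0.09 (SE). Rps27a, which encodes ubiquitin fused to a small-subunit protein, had 0.01 ± 0.12 (SE). The large-subunit genes Rpl10, Rpl34 and Rpl36a and the small-subunit gene Rps26 lay between 0.02 and 0.05.

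Paralogs were compared with their parent genes within each heart. Rps27l, a p53-inducible paralog of Rps27, stood at 18.5%, 15.0% and 13.6% of Rps27 in controls 2, 5 and 9 and at 15.8%, 10.4% and 15.4% for mutants 5, 8 and 10. The ratio was highest in control 2 and lowest in mutant 8, and the groups overlapped. Rps27l and Rps27 had log2 changes of 0.04 ± 0.14 and 0.24 ± 0.15 (SE).

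Of ribosomal protein genes whose symbols fall outside the rule, 5 are given here, and none of these passed the test in limma. Rpl36al, a retrogene copy of Rpl36a on chromosome 12, had 137 ± 12.7 RPKM (control) and 167 ± 11.96 RPKM (mutant), without overlap. Gnb2l1 (Rack1, a scaffold on the small subunit) had 212 and 238 RPKM, also without overlap, and Fau, a small-subunit protein made as a fusion with a ubiquitin-like domain, 521 and 588 RPKM with overlap. Rps3a1, the small-subunit gene of that name in mice, had 1396 ± 164 and 1430 ± 76.2 RPKM (SD, n = 3 each). Rps4y2, a gene on chromosome 6 named as a relative of Rps4x, lay the other way, at 25.7 ± 0.604 and 21.5 ± 3.19 RPKM, with every mutant heart below every control heart, a log2 change of −0.26 ± 0.11 (SE) and an adjusted p in limma of 0.45.

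The members' differences went with the base composition of their transcripts, a relation seen only after the values had been examined. Over the 77 genes Spearman's correlation between transcript GC content and log2 change was 0.52, and over 12906 tested genes of any kind it was 0.35, both as descriptions across genes that share libraries. The third of the members lowest in GC (41.3% to 49.5%) had a median log2 change of 0.11, the middle 0.16 and the highest (54.0% to 60.8%) 0.22, and 5 of 26, 10 of 26 and 14 of 25 genes in those groups showed no overlap, against 7.6% of all tested genes. All tested genes shifted with GC too, from 22.9% positive in the lowest of 5 GC groups to 64.5% in the highest. Hearts of the same genotype differed in this respect. Over the members the rank correlation between GC and the deviation from the control mean was −0.60 in control 2, 0.52 in control 5 and 0.55 in control 9, and lay between 0.35 and 0.50 in the mutants. Over all tested genes it was −0.65, 0.33 and 0.59 in controls 2, 5 and 9. In mutants 5, 8 and 10 it was −0.14, 0.58 and 0.21, so mutant 5 did not share the positive sign there.

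After each library's trend with GC was subtracted, blind to genotype, 77 of 77 members had a positive log2 change, from 0.01 to 0.40 with a median of 0.17. This step also moved the median over all tested genes, from −0.03 to −0.0026. Setting the libraries to a common median, without regard to GC, gave 75 of 77 positive members with a median of 0.19. With the GC trend subtracted, the rank correlation between GC and log2 change over the members was 0.19, and their spread (SD) was 0.09 in place of 0.11. Members without overlap after that subtraction numbered 24, where 11.16% of all genes with a GC value had mutants higher. No member was called after it, and the mutant 10 median deviation of 0.07 was still below the 0.09 of control 2. The part of library composition in the members' difference was not tested.

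**Figure D4:**
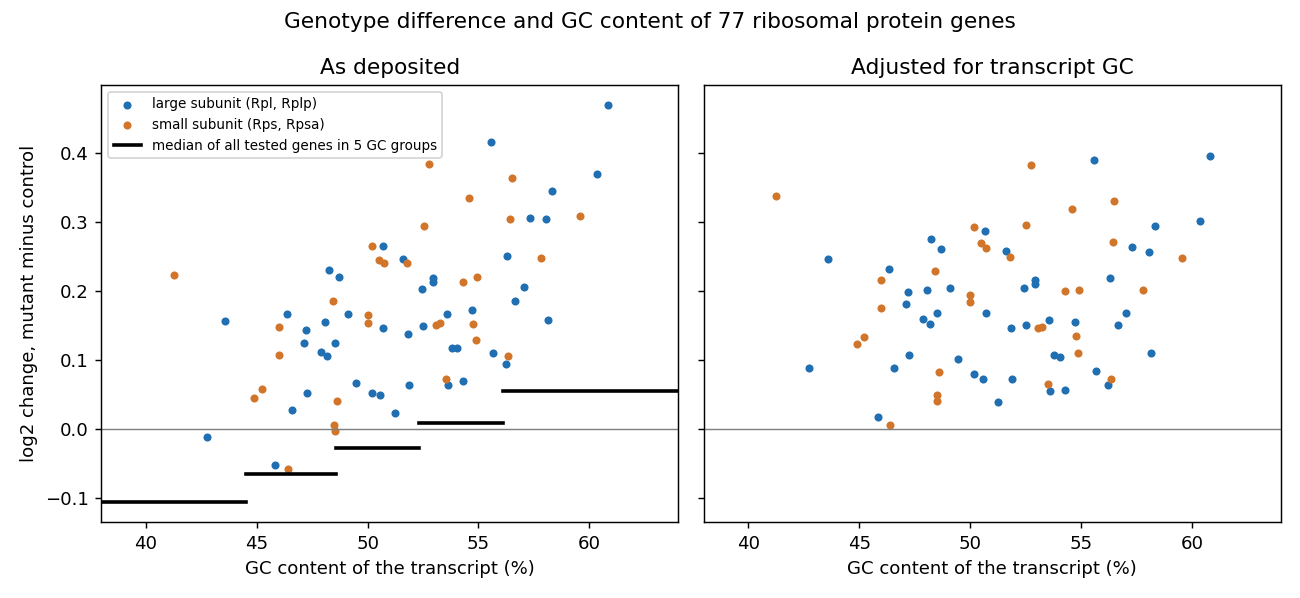
Log2 change (mutant minus control) of the 77 tested ribosomal protein genes against the GC content of their transcript in percent, as deposited (left) and after each library's GC trend was subtracted (right); blue is the large and orange the small subunit, and black lines on the left are medians of all tested genes in 5 GC groups, from −0.11 to 0.06. The upward slope on the left is mostly gone on the right, where all points lie above 0.

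Transcript length was also related to the log2 change over all tested genes, with medians from 0.05 in the shortest of 5 equal groups to −0.09 in the longest. Ribosomal protein transcripts are short, and 68 of the 77 fell in the shortest group, up to 1284 bases. In that group 58.9% of all genes and 65 of the 68 members had a positive log2 change, and the members' median was 0.16. The rank correlation between length and log2 change over the members was −0.18, and between mean level and log2 change 0.01.

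By chromosome, all 6 tested members on chromosome 17 had mutant hearts above all controls, as 7.6% of all tested genes did, with a median log2 change of 0.33 and a median GC of 56.0%. The 646 tested genes of chromosome 17 had a median log2 change of −0.0042. These are Rpl36, Rps2 and Rps28 and, named here after their values were seen, Rps10, Rps18 and Rpl10a. The 14 members on chromosome 7 had a median of 0.24, with 7 free of overlap. The 4 on the X chromosome (Rpl10, Rpl36a, Rps4x and, named after its value was seen, Rpl39) had a median of 0.04 with 0 free of overlap. Chromosomes 17 and X had the highest and lowest medians by chromosome. Chromosomes 3, 12, 13, 14, 16 and 18, with 1 or 2 members each, also had 0 free of overlap. The median GC of the members was 53.4% on chromosome 7 and 48.6% on the X. Chromosome Y transcripts were present in 4 hearts (Ddx3y at 9.53 to 13.5 RPKM) and near 0 in control 9 and mutant 8, so each genotype had 1 heart without them. In those 4 hearts the members' median log2 change was 0.13 with 73 positive, and 41 genes showed no overlap, where 15.99% of all tested genes did with mutants higher.

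Other genes of the translation apparatus were taken from lists drawn up with earlier results of these data known. None of their genes passed the test in either direction. In mitochondrial ribosomal proteins, which build the ribosome that translates mitochondrial DNA, 67 of 76 genes had a positive log2 change, with a median of 0.12, and 26 showed mutants above all controls, where 42.6% and 7.6% of all tested genes did. The list's median deviation was −0.0003, −0.01 and 0.01 in controls 2, 5 and 9 and 0.13, 0.14 and 0.14 for mutants 5, 8 and 10, and here the groups did not overlap. Mrps18b had 15.7 ± 0.711 RPKM (control) and 21.4 ± 1.15 RPKM (mutant) (SD, n = 3 each), with an adjusted p in limma of 0.08.

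Ribosome biogenesis factors, which process ribosomal RNA and assemble subunits, had a median log2 change of 0.08, with 32 of 36 positive. Rrp12, Rrp9 and Rrs1, the 3 with the smallest p, had changes of 0.37, 0.39 and 0.28. Elongation factors and other TOP transcripts had a median of 0.04, with 12 of 18 positive and Eef2 at 476 ± 57.1 and 562 ± 67.3 RPKM. RNA polymerase I components had a median of 0.02 with 7 of 11 positive, and snoRNA host genes 0.16 with 3 of 4 positive. Regulators of mTORC1 and TOP translation had a median of 0.03 with 7 of 14 positive. Among them Eif4ebp1, the translational repressor 4E-BP1, had 85.7 ± 4.26 RPKM (control) and 122 ± 11.8 RPKM (mutant), a log2 change of 0.50 ± 0.10 (SE) with an adjusted p in limma of 0.06. In the list of nucleolar stress and p53 genes, 7 of 8 were positive with a median of 0.15, and Cdkn1a (p21), a p53 target, had 4.46 ± 0.764 and 7.57 ± 1.04 RPKM, with an adjusted p in limma of 0.08.

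**Figure D5:**
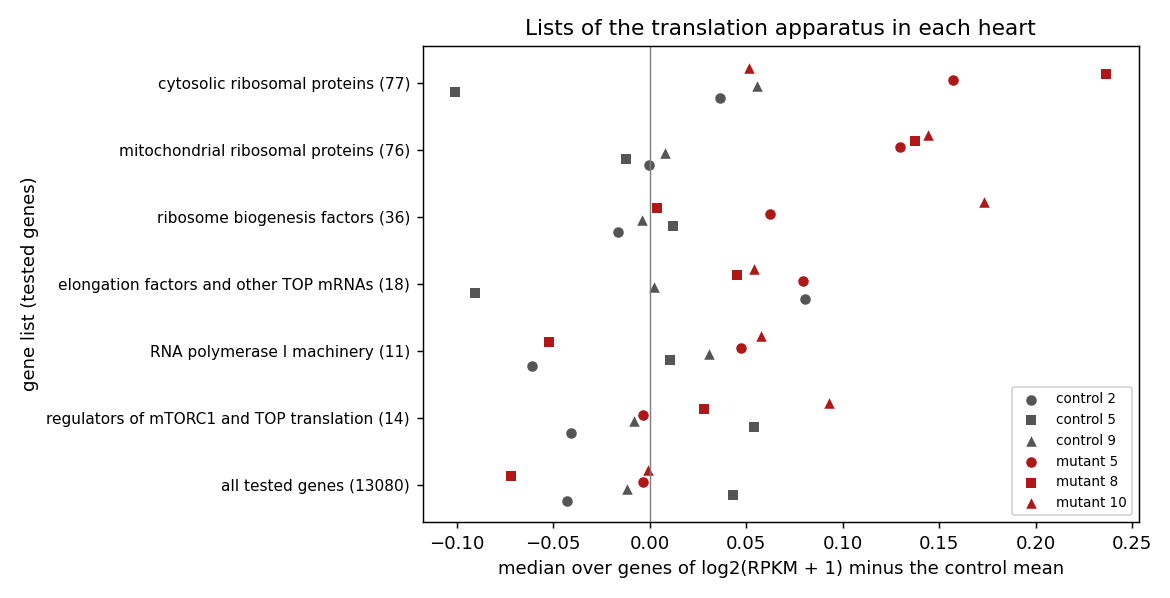
Median over the genes of each list of log2(RPKM + 1) minus the control mean, for each heart (grey control, red mutant; number of tested genes in brackets). The mitochondrial ribosomal proteins separate the 3 mutant hearts (0.13 to 0.14) from the 3 controls (−0.01 to 0.01), whereas among cytosolic ribosomal proteins mutant 10 (0.05) lies within the controls.

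Markers of the heart's cell types and of RNA content are given beside these results, and their part in them was not tested. Cardiomyocyte markers were abundant in every heart with summed levels of 19051 to 20783 RPKM (control) and 19911 to 21460 RPKM (mutant) and a median log2 change of 0.00 over 10 genes. The change was positive in 6 of these 10. Myl7 (0.42) and Actc1 (0.27) had every mutant heart above every control, as 7.6% of all tested genes did, and 0 of the 10 had every mutant heart below. No marker passed the test in either direction. Macrophage markers had a negative log2 change in 8 of 8 genes, with a median of −0.69, with sums of 27.6 to 33.0 and 8.82 to 22.8 RPKM, and epicardial and mesenchymal markers in 8 of 9, with a median of −0.32 and sums of 415 to 481 and 269 to 383 RPKM. Endothelial markers had a median log2 change of −0.17 (sums of 121 to 142 and 110.3 to 134 RPKM), and smooth muscle markers 0.06 over 4 genes. The single tested neural (Tubb3) and liver (Apoa2) markers had 0.46 and 0.42, both at low levels. Tubb3 measured 1.26 to 1.87 RPKM (control) and 2.12 to 3.14 RPKM (mutant). The 2 liver markers present, 1 of them untested, summed to 1.44 to 4.54 RPKM (control) and 1.86 to 3.03 RPKM (mutant), with overlap. Erythroid markers summed to 13963 to 16571 RPKM (control) and 11719 to 21063 RPKM (mutant), highest in mutant 8. Haemoglobin took 3.76% to 6.12% of summed RPKM, and copies of 5S ribosomal RNA summed to 10.7, 31.2 and 71.9 RPKM in controls 2, 5 and 9 and 31.3, 192 and 116 RPKM for mutants 5, 8 and 10.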

How the data were processed

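Total RNA of 3 control and 3 mutant hearts was sequenced. The deposited table gives RPKM for 15118 genes and 6 hearts. Its header names no unit, which was taken from the values, and it lists the constitutive exons the authors used. Reads were handled with Trim Galore and TopHat2 on mm10, per the submitters' processing notes. Versions, the gene counter, strandedness and the placing of multiply matching reads are not named in those notes or labels.

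The test covered genes reaching 1 RPKM in 3 or more libraries, on log2(RPKM + 1), which understates changes of low genes, with limma 3.58.1 (trend, 6 hearts, no covariates, R 4.3.3), two-sided, with Benjamini-Hochberg adjustment over 13080 genes and a threshold of 0.05. The script was tested on simulated data. Tables and figures used Python 3.11.15, pandas 2.3.3 and matplotlib 3.10.9. Counting error is small beside the spread between hearts (CV about 1.07% for the shallowest tested member, by its GENCODE M21 transcript length). Depth was read from steps of low values, 86.11% to 96.23% of which were whole within 0.1 of a step.

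Transcript GC and length came from 1 transcript per gene of GENCODE M21 (protein-coding, with a CCDS tag, then by APPRIS rank, coding length and shortness). Earlier versions of this choice, first the longest transcript and then APPRIS rank before CCDS, were replaced after their relation of GC to change had been seen. It was positive under all of them and weakest with the longest transcript. The GC trend was a loess fit per library (values minus each gene's mean). The 10 strings searched in the promoters were chosen after the promoters had been seen.

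The members and gene lists were chosen with earlier results of these data known. Named members are those with the 8 highest and 8 lowest log2 changes, the 5 highest and 5 lowest levels, paralogs with their parents, the untested member, and Rpl5, Rpl11, Rps6, Rps19, Rpl10, Rplp0, Rpsa and Rps27a, and up to 3 genes of smallest p per other list. Genes of the outside-the-rule list beyond these, and members named only for their start sequence, were named after their values were seen. Alternatives varied the pseudocount, filter, scaling, limma's prior and the hearts included. The GC adjustment, the 4 hearts with chromosome Y transcripts and the fit without control 2 and mutant 8 were added after the data were seen. Protein sequences were not analysed here, and 1 gene of the outside-the-rule list is not reported here.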

Additional observations from a re-analysis of the deposited data

How the results depend on the processing

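No paired analysis was possible because the 2 genotypes share only the number 5. Over 18 alternatives limma called 0 ribosomal protein genes, and their median log2 change stayed between 0.11 and 0.21. All tested genes past the threshold numbered 107, 40 to 198 when 1 heart was left out, 53 in the 4 hearts with chromosome Y transcripts and 181 after adjustment for transcript GC. The large-minus-small difference of medians was −0.037 after GC adjustment and −0.040 to −0.022 with 1 heart left out. The cause of these moves was not tested. Of 29 tested members named by rule, 9 changed sign under some alternative, none being called in any. With 1 heart left out the log2 change ran from −0.051 to 0.076 in Rpl34, −0.10 to 0.19 in Rpl36a, −0.11 to 0.12 in Rpl5, −0.16 to 0.068 in Rpl7, −0.16 to 0.050 in Rps15a, −0.020 to 0.11 in Rps26, −0.10 to 0.10 in Rps27a, −0.056 to 0.20 in Rps27l and −0.078 to 0.066 in Rps4x. Rescaled without haemoglobin genes, Rpl34 was −0.020, Rpl36a −0.017, Rps26 −0.0031 and Rps27a −0.038, and rescaled without the members Rps27a was −0.011. Median centring, which moved the median of all genes from −0.03 to 0.01, gave 0.023 for Rpl5 and 0.032 for Rps4x. In the 4 hearts with chromosome Y transcripts Rpl36a was −0.045, Rps15a 0.022, Rps26 −0.037 and Rps4x 0.0037. Without control 2 and mutant 8, Rpl5 was 0.16, Rpl7 0.11, Rps15a 0.14 and Rps4x 0.067. GC adjustment gave 0.088 for Rpl5, 0.016 for Rpl7, 0.0053 for Rps15a and 0.039 for Rps4x.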
